A study of Mus musculus with 6 samples.

Results

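The transcripts of 10 immediate early genes, Fos, Fosb, Jun, Junb, Egr1, Ier2, Btg2, Nr4a1, Atf3 and Dusp1, were followed across the cell types of the mouse hypothalamus. They were chosen by symbol, and all 10 were found among the 16411 genes of the deposited count table. Immediate early genes are transcribed within minutes of a stimulus, without the need for newly made protein. Signals that pass through mitogen-activated protein kinases (MAPKs), calcium and cyclic AMP reach them through serum response factor with its ternary complex partners and through the factor CREB. Most encode transcription factors, some encode proteins that limit the response, and the transcripts are short-lived. In brain they are widely read as marks of recent cell activation, and they are also known to be induced while tissue is being taken apart with enzymes.

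The cells came from the hypothalamus of male ob/ob mice, which lack leptin and become obese and diabetic. Each mouse was 11 weeks old, received 3 µg of FGF1 R50E (a mutant form of fibroblast growth factor 1) into a cerebral ventricle, and was killed on day 5. Whole cells were released with a Neural Tissue Dissociation Kit and fire-polished pipettes and sequenced with the Chromium 3' v2 chemistry, which counts molecules as unique molecular identifiers (UMIs). The labelled samples form 1 group, R50E, of 6 mice with 1 mouse a sample. Cells of 4 of them, mice 3, 4, 30 and 34, were in the table, and mice 12 and 37 were not analysed here. No effect of FGF1 R50E was estimated, since no other group was among the labelled samples. All cells were dissociated, so transcripts present in the tissue and transcripts made during dissociation cannot be told apart.

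In all, 20151 cells were used, from 3005 in mouse 30 to 7386 in mouse 3, with 3299971 to 8856079 UMIs a mouse and a median of 909 to 1066 UMIs a cell. Of 19954 distinct cell barcodes, 194 occurred in more than 1 library. The summed level of 4 Y-linked genes was 93.9 CPM (counts scaled to a total of 1000000) in mouse 30 and between 227 and 229 CPM in the other 3 mice, so the library of mouse 30 stood apart, and results are also given without it. Cells carried the authors' labels of 9 non-neuronal types. Over the pooled cells, 42 of the 43 defining markers of these types were highest in their own type, and Vim, listed for tanycytes, was higher in ependymal cells. Cx3cr1 was at 2076 CPM in microglia and at most 17.8 CPM in the other types, but some markers reached more than 50% of their own type's level in another type, among them Aqp4 (85.4%, in ependymal cells) and Aldoc (56.2%, in tanycytes) of astrocytes and Neu4 of committed oligodendrocyte precursors (52.2%, in oligodendrocyte precursor cells). Itm2a of endothelial cells reached 47.5% in vascular leptomeningeal cells. The endothelial label also held markers of mural cells, the pericytes and smooth muscle cells of vessels, with Rgs5 at 1874 CPM and Vtn at 1046 CPM over the pooled cells. Vascular leptomeningeal cells, a fibroblast-like type of the meninges, numbered 68, and 3 mice had fewer than 20 of them, so they were described only as a pool, and the orders and comparisons given are among the other 8 types.

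Promoters of 8 of the 10 genes were matched in RefSeq (GRCm38.p6), and the 250 bases before each start were searched on both strands. The cyclic AMP response element TGACGTCA, to which CREB and related factors bind and which reads the same on both strands, was found in Btg2 and Dusp1. It occurred in 1.62% of the 27025 promoters of that length. The letters TATAAA were found in Fos alone, 33 bases before its start, and in 13.0% of all promoters. The GC box GGGCGG was present in 7 of the 8, all but Junb, and in 32.9% of all promoters, where neighbouring matches can overlap. Neither the AP-1 letters TGANTCA, present in 6.87% of all promoters, nor the CArG box, the element of serum response factor, present in 1.40%, was found in these windows. The 3 promoters with the rarer letters are shown because they let the elements be seen in place, with TATAAA in capitals for Fos (chr12:85473640-85473889, plus strand) and TGACGTCA in capitals for Btg2 (chr1:134079156-134079405, minus strand) and Dusp1 (chr17:26508473-26508722, minus strand).
Fos: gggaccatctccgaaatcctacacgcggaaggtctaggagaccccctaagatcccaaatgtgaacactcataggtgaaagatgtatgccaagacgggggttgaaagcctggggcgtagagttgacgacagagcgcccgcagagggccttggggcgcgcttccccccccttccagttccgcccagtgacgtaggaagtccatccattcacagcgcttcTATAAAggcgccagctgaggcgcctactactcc
Btg2: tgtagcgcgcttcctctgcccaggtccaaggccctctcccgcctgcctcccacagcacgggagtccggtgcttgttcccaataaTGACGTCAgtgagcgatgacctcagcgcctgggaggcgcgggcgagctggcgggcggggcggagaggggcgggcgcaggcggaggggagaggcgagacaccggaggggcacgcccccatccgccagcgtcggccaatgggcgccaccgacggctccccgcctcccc
Dusp1: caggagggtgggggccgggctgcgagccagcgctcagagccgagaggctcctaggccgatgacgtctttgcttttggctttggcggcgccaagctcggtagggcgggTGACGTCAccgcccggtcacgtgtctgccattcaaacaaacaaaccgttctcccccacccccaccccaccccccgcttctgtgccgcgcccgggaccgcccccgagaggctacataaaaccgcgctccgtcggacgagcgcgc
The element lay between 166 and 159 bases before the start in Btg2 and between 143 and 136 bases before it in Dusp1. These matches describe the letters only, no binding was measured, and a window without a match says nothing of the factor.

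UMIs of the 10 genes were first summed within each mouse and cell type and divided by all UMIs of that sum. Among the 8 types with enough cells, microglia and endothelial cells stood apart from the other 6. In microglia the 10 genes together reached 14718, 12445, 9155 and 15896 CPM in mice 3, 4, 30 and 34, and in endothelial cells 10280, 9922, 8265 and 11560 CPM. Thus 1.31% ± 0.297 of all UMIs of microglia and 1.00% ± 0.136 of those of endothelial cells came from these genes (SD, n = 4). The lowest of these 8 sums exceeded the highest sum of the other 6 types, 4501 CPM in the tanycytes of mouse 34.

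Tanycytes, the elongated glia at the floor of the third ventricle, held 1637, 2678, 1892 and 4501 CPM, and ependymal cells, the ciliated lining of the ventricle, held 1525, 2093, 2831 and 3643 CPM. Astrocytes held 2390, 1078, 784 and 2054 CPM, and oligodendrocyte precursor cells (OPCs) held 1585, 1119, 1206 and 1893 CPM. The ranges of these 4 types overlapped. Oligodendrocytes, the myelinating cells, lay lower at 516, 534, 521 and 692 CPM, and committed oligodendrocyte precursors (COPs), the stage between OPC and oligodendrocyte, were lowest on average at 211, 479, 187 and 478 CPM. Every oligodendrocyte sum was above the COP sum of the same mouse, although the ranges come close. As a reference, 10 housekeeping genes summed to between 1206 ± 95.1 CPM in microglia and 1976 ± 169 CPM in oligodendrocytes (SD, n = 4).

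**Figure D1:**
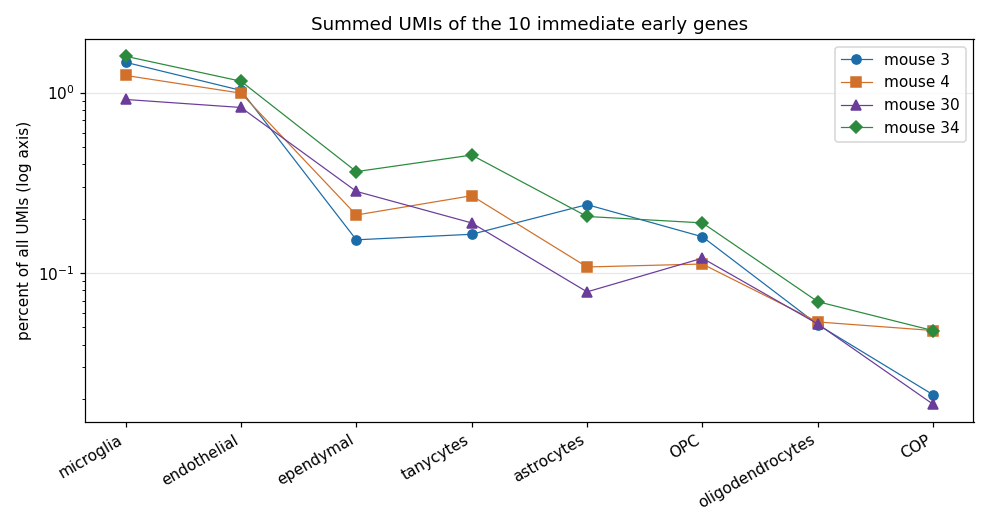
Summed UMIs of the 10 immediate early genes as a percent of all UMIs (log axis) for each of the 8 cell types with enough cells, with 1 line for each of the 4 mice. Among these, microglia and endothelial cells lie highest in every mouse, and COPs lie lowest, next to oligodendrocytes, at 0.0339% and 0.0566% on average.

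The Fos and Jun families encode the subunits of AP-1, a pair of leucine zipper proteins that binds DNA. Fos contributed the most UMIs of the 10 genes in each of the 8 types with enough cells, counted at transcript ends and so not scaled by length. It stood at 3306, 3206, 2429 and 3951 CPM in endothelial cells and at 3582, 2726, 2129 and 3951 CPM in microglia of mice 3, 4, 30 and 34. These ranges overlapped: microglia were higher in mouse 3, endothelial cells in mice 4 and 30, and the types were level in mouse 34. Tanycytes followed with 911, 1198, 926 and 2226 CPM, ependymal cells with 807, 1054, 1419 and 1924 CPM, and astrocytes with 1628, 558, 398 and 1258 CPM. Astrocytes varied most between mice, with a coefficient of variation of 0.605, and their range overlapped with those of tanycytes, ependymal cells and OPCs (659, 443, 544 and 888 CPM). Oligodendrocytes at 246, 216, 212 and 308 CPM and COPs at 70.2, 109, 47.9 and 130 CPM overlapped with none of the types above them and not with each other. From endothelial cells to COPs the mean fell 36.1-fold.

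Fosb, the paralog of Fos, was highest in endothelial cells, at 815, 802, 657 and 751 CPM. Microglia held less in every mouse, 375, 492, 253 and 699 CPM, although the ranges overlapped. OPCs, at 129, 119, 93.4 and 177 CPM, exceeded astrocytes, at 60.7, 32.1, 34.0 and 60.5 CPM, in each mouse without overlap. Fosb in COPs rested on 9 UMIs in 681 cells, at 2.01 to 13.6 CPM, beside 187 UMIs in 1261 OPCs.

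Jun was nearly equal in microglia (1430 CPM ± 546) and endothelial cells (1409 CPM ± 114; SD, n = 4), each the higher in 2 mice. Its level was 287 CPM ± 96.4 in ependymal cells, then 265 CPM ± 125 in tanycytes, 226 CPM ± 45.1 in OPCs, 154 CPM ± 53.0 in astrocytes, 108 CPM ± 16.6 in oligodendrocytes and 76.8 CPM ± 50.3 in COPs. From ependymal cells to COPs all neighbours in that order overlapped, while endothelial and ependymal cells did not. The mean spanned 18.6-fold from microglia to COPs, the smallest span of the 10 genes. Junb was highest in microglia, where mouse 4 stood at 1653 CPM and the others between 791 and 817 CPM. Endothelial cells held 540, 827, 459 and 482 CPM, above all values of the remaining types. Astrocytes held 56.0 to 73.2 CPM and OPCs 13.1 to 45.1 CPM without overlap, which is the reverse of the order of these types for Fosb.

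**Figure D2:**
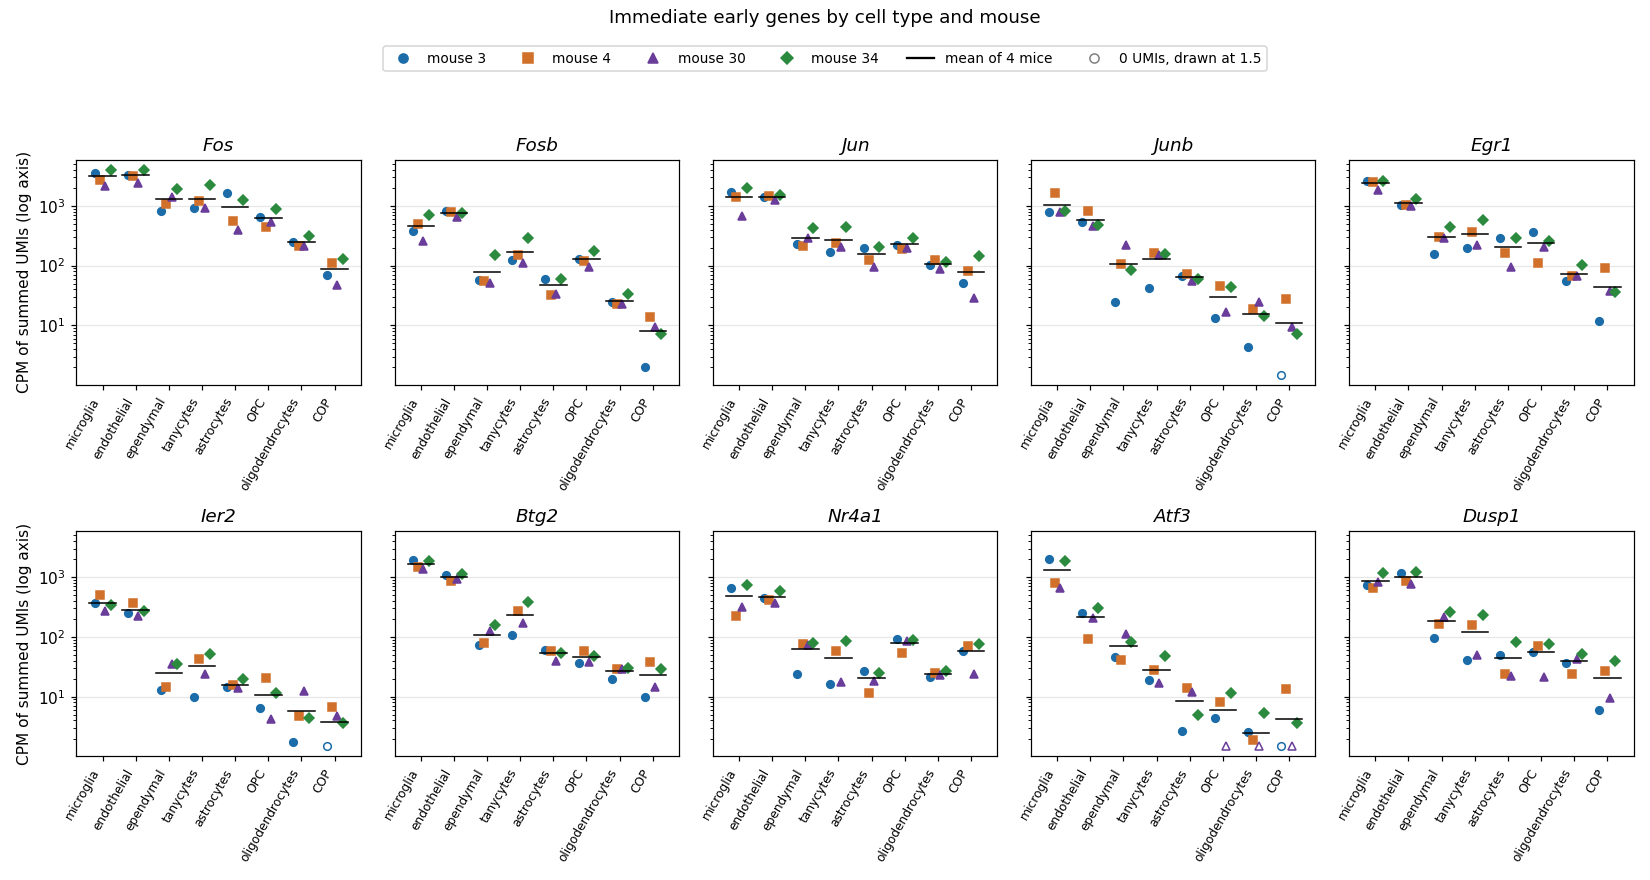
Level of each immediate early gene as CPM of summed UMIs (log axis) in 8 cell types, with 1 symbol for each mouse and a bar for the mean of 4 mice. Microglia and endothelial cells are highest for each gene, and the sums at 0 UMIs, drawn as open symbols, all belong to the oligodendrocyte lineage.

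Among the other transcription factors, Egr1, a zinc finger protein, was higher in microglia (2548, 2525, 1855 and 2578 CPM) than in endothelial cells (1040, 1044, 975 and 1313 CPM), and the ranges did not overlap. Tanycytes, at 194, 368, 220 and 579 CPM, overlapped with ependymal cells, at 157, 297, 293 and 449 CPM, and OPCs with astrocytes. Oligodendrocytes held 73.2 CPM ± 19.7 and COPs 44.6 CPM ± 33.6 (SD, n = 4), again overlapping. Atf3, a stress-induced factor of the CREB/ATF family, had the widest span, 536-fold from microglia to oligodendrocytes. It stood at 2038, 782, 659 and 1828 CPM in microglia and at 252, 91.0, 205 and 304 CPM in endothelial cells, without overlap. Ependymal cells were next, at 46.9, 40.4, 112 and 81.8 CPM, above tanycytes of the same mouse each time, at 19.2, 28.4, 16.9 and 48.2 CPM. In astrocytes Atf3 amounted to 33 UMIs in 5909 cells, and in OPCs, COPs and oligodendrocytes to 9, 5 and 18 UMIs in all.

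Nr4a1, an orphan nuclear receptor, departed from this order. Microglia, at 652, 223, 314 and 741 CPM, and endothelial cells, at 449, 416, 364 and 595 CPM, were again highest and overlapped. The third place belonged to OPCs, at 92.0, 53.3, 84.9 and 87.2 CPM, and COPs, at 58.2, 71.3, 23.9 and 76.1 CPM, lay above oligodendrocytes of the same mouse in all 4 mice. Astrocytes were lowest, at 27.2, 11.6, 18.0 and 25.0 CPM, and overlapped with oligodendrocytes, at 21.6 to 26.6 CPM.

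The other 3 genes encode no classical transcription factor. Btg2, which restrains proliferation and takes part in shortening the tails of messenger RNAs, was highest in microglia (1933, 1497, 1379 and 1820 CPM), next in endothelial cells (1082, 862, 926 and 1138 CPM) and next in tanycytes (109, 271, 167 and 380 CPM), and none of these 3 ranges overlapped. Ependymal cells lay below tanycytes in each mouse, at 72.8, 78.0, 124 and 158 CPM, and above all astrocyte values, 40.0 to 60.7 CPM. Dusp1, a phosphatase that switches off MAPKs, was higher in endothelial cells (1151, 854, 770 and 1220 CPM) than in microglia (742, 648, 821 and 1171 CPM) in 3 of 4 mice. Ependymal cells exceeded tanycytes in each mouse, with 95.4, 162, 217 and 261 CPM beside 41.8, 160, 50.6 and 231 CPM. Ier2, a small nuclear protein, stood at 369 CPM ± 90.6 in microglia, 279 CPM ± 66.1 in endothelial cells and 32.2 CPM ± 19.0 in tanycytes (SD, n = 4), and it fell to 3.80 CPM ± 2.85 in COPs, where 4 UMIs were counted. The first 2 of these overlapped, and neither overlapped with tanycytes.

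The pool of 68 vascular leptomeningeal cells held 611 UMIs of the 10 genes, or 4913 CPM, between endothelial cells and tanycytes. Of these UMIs 199 were Fos, 130 Egr1, 71 Jun, 52 Fosb, 42 Junb, 34 Btg2, 33 Dusp1, 23 Nr4a1, 19 Ier2 and 8 Atf3. The sums of single mice ran from 3624 to 13949 CPM on 6 to 44 cells, and no comparison was made.

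The first comparison asked which of the genes differ between the vascular or immune cells and astrocytes. Counts of each mouse and type were compared with the edgeR quasi-likelihood test, with mouse as a block, and genes whose adjusted p was under 0.05 and whose log2 fold change exceeded 1 in size were called. In endothelial cells against astrocytes, 10 of the 10 genes were called higher, where 17.2% of the 7616 genes tested were called higher and 35% in either direction. The log2 fold change was 5.20 ± 0.24 (SE) for Atf3, 4.36 ± 0.14 for Dusp1, 4.35 ± 0.14 for Nr4a1, 4.18 ± 0.12 for Btg2 and 3.99 ± 0.16 for Ier2. The AP-1 genes followed with 3.86 ± 0.13 for Fosb, 3.10 ± 0.11 for Jun and 3.07 ± 0.12 for Junb. Egr1 at 2.32 ± 0.12 and Fos at 1.83 ± 0.13 (edgeR adjusted p = 3.5e-20) differed least, and all 10 were higher in 4 of 4 mice. The median over the 10 genes was 3.92. Atf3 of astrocytes rested on 33 UMIs in 5909 cells. Its fold changes against astrocytes, here and in the next comparisons, therefore stand on a low base.

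Microglia against astrocytes also gave 10 of 10 called higher, beside 17.8% of 4778 genes called higher and 37.8% in either direction. Atf3 differed most, by 8.05 ± 0.26 on the log2 scale (SE), followed by Btg2 at 5.13 ± 0.16, Nr4a1 at 4.78 ± 0.24, Ier2 at 4.64 ± 0.26, Dusp1 at 4.37 ± 0.19, Junb at 4.04 ± 0.17, Egr1 at 3.70 ± 0.15, Fosb at 3.38 ± 0.23, Jun at 3.35 ± 0.15 and Fos at 1.98 ± 0.13. For Fos the edgeR adjusted p was 2.1e-25, and each gene was higher in 4 of 4 mice. The astrocyte sums are shared by this and the preceding comparison. The difference in Fos varied between mice: in mouse 30 endothelial cells held 2429 CPM beside 398 CPM in astrocytes, and in mouse 3 they held 3306 CPM beside 1628 CPM.

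Mural markers and macrophage markers were present in these types, and the comparisons were repeated without the cells that carried any of them, an alternative added after the data had been seen. Of 1266 endothelial cells 878 were left out, and of 380 microglia 34. In both comparisons 10 genes were still called, and the summed level was 10315 CPM in endothelial cells and 13371 CPM in microglia, beside 10007 and 13054 CPM with all cells. Without mouse 30 both comparisons again called 10 genes.

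The next comparisons concerned the lining of the ventricle. In ependymal cells against astrocytes, 3 of the 10 genes were called higher, Atf3 (log2 fold change 3.22 ± 0.31), Dusp1 (1.73 ± 0.22) and Nr4a1 (1.27 ± 0.28; SE), beside 17.6% called higher and 31.8% in either direction among 8371 genes. Atf3 and Dusp1 were higher in 4 of 4 mice and Nr4a1 in 3. Fos was at 0.44 ± 0.26 with an edgeR adjusted p of 0.16, and Jun, Btg2 and Fosb had adjusted p-values below 0.05 but log2 fold changes of 0.74, 0.87 and 0.60. Without mouse 3, in which the ependymal values were lowest for 7 of the 10 genes, 5 were called, and without mouse 30, 3 were called.

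Tanycytes against astrocytes gave 4 genes called higher, Atf3 (2.22 ± 0.30), Btg2 (1.93 ± 0.18), Fosb (1.74 ± 0.15) and Dusp1 (1.13 ± 0.20; log2 fold change, SE), beside 9.9% called higher and 21.2% in either direction among 10081 genes. The other 6 lay between 0.48 ± 0.16 for Fos and 0.92 ± 0.26 for Nr4a1, each with an edgeR adjusted p below 0.05. They did not pass the limit on the fold change. This count rested on mouse 3, the mouse with the highest astrocyte Fos (1628 CPM) and the lowest tanycyte Fos (911 CPM): without it 9 genes were called, and only Fos, at 0.98, was not. Without mouse 30 the count was 5. Dusp1 moved to 0.86 without mouse 4 and to 0.88 without mouse 34 and was then no longer called, and DESeq2 did not call it either (adjusted p = 0.071).

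Between tanycytes and ependymal cells, which line the same ventricle, Fosb (1.20 ± 0.13) and Btg2 (1.12 ± 0.14) were called higher in tanycytes, and Atf3 was called lower (-1.17 ± 0.21; log2 fold change, SE). Of 8781 genes 6.73% were called higher, 13.1% lower and 19.8% in either direction. Each of the 3 held in 4 of 4 mice, with edgeR adjusted p-values of 1.3e-10, 4.4e-09 and 1.3e-05. Fos (0.08 ± 0.10) and Jun (-0.07 ± 0.11) had no difference detectable here, and each differed from 0 by less than its SE. Dusp1 was lower in tanycytes in all 4 mice (-0.61 ± 0.17) without passing the limit. Without mouse 30 the count was 2, since Atf3 moved to -0.77, and without mouse 4 or mouse 34 Btg2 moved to 0.95 or 0.97. In cells with at least 1000 UMIs, Atf3 moved to -0.97.

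**Figure D3:**
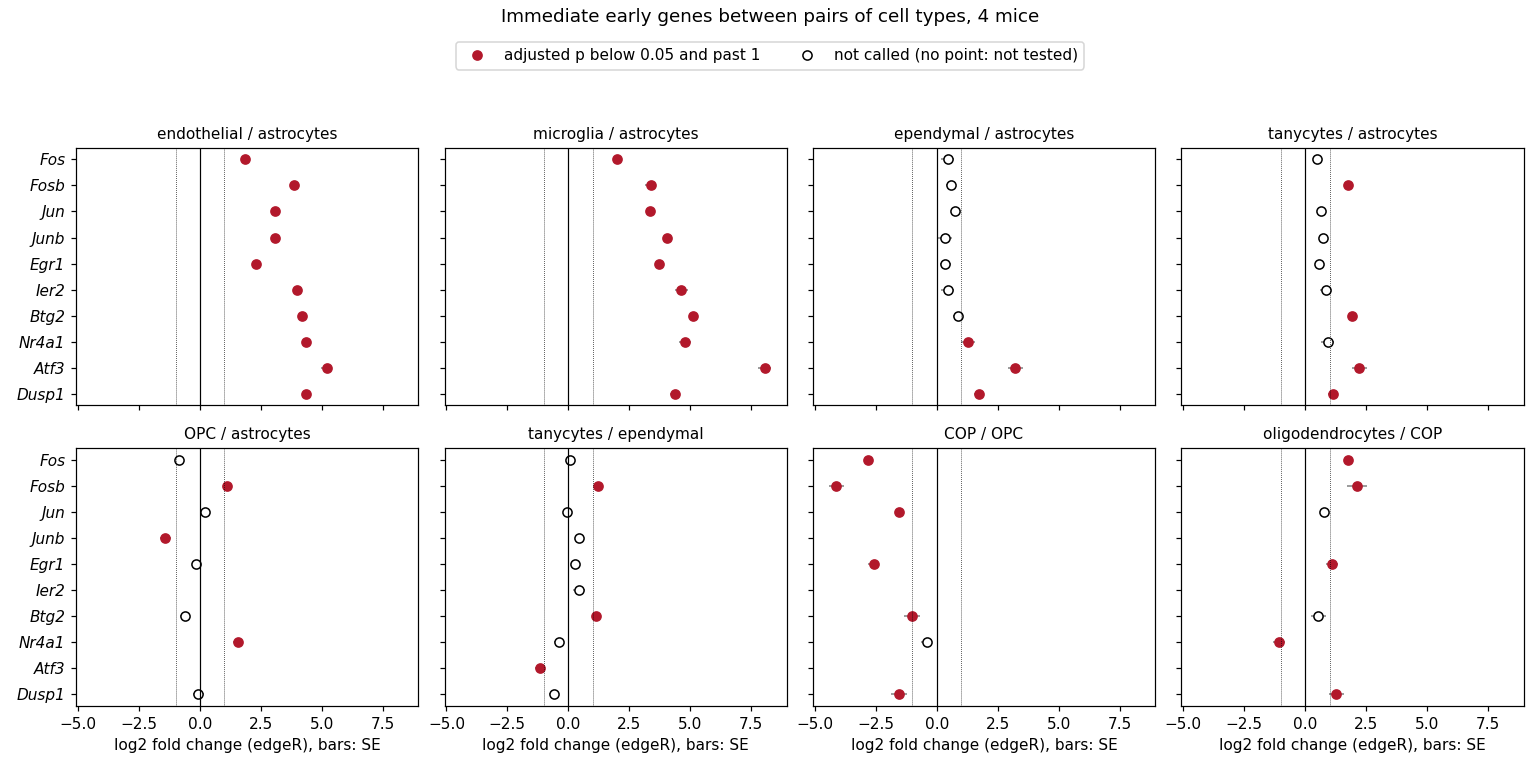
Log2 fold change of each immediate early gene between 8 pairs of cell types (edgeR, 4 mice; horizontal bars are the SE, dotted lines mark 1 and -1). Filled points are called genes: 10 of 10 for endothelial cells and for microglia against astrocytes, and between 3 and 6 in the other comparisons, in both directions for OPCs against astrocytes, tanycytes against ependymal cells and oligodendrocytes against COPs.

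Along the oligodendrocyte lineage most called genes were lower at the first step and higher at the next. The Fos of COPs and oligodendrocytes was not separated from background by the markers given below. This limit holds for its changes here. OPCs were first compared with astrocytes. Of the 8 genes with enough counts, Nr4a1 (1.57 ± 0.20) and Fosb (1.12 ± 0.16) were called higher and Junb lower (-1.42 ± 0.24; log2 fold change, SE), each in 4 of 4 mice, where 10.9% of 6902 genes were called higher, 12.4% lower and 23.2% in either direction. Fos was at -0.85 ± 0.12 (edgeR adjusted p = 1.4e-08) and higher in 1 of 4 mice. Btg2 was at -0.59 ± 0.21 (edgeR adjusted p = 0.014) and higher in 0 of 4 mice. Neither passed the limit on the fold change, and Ier2 and Atf3 were too low to be tested. In cells with at least 1000 UMIs, Fosb moved to 0.70 and was not called. Without mouse 30 the count was 4.

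From OPCs to COPs, 6 of the 7 tested genes were called lower, beside 13.2% called lower and 24% in either direction among 4879 genes. Fosb fell by 4.12 ± 0.32 on the log2 scale, Fos by 2.81 ± 0.14, Egr1 by 2.60 ± 0.24, Jun by 1.55 ± 0.18, Dusp1 by 1.55 ± 0.33 and Btg2 by 1.02 ± 0.33 (SE), each in 4 of 4 mice. The edgeR adjusted p was 4.2e-33 for Fos and 0.0077 for Btg2. Nr4a1 did not pass the test, at -0.42 ± 0.22 (edgeR adjusted p = 0.12). In COPs Fosb rested on 9 UMIs, Dusp1 on 24 and Btg2 on 27. These genes passed the filter on low counts mainly through OPCs, where they are higher. They could hardly be called in the other direction, so the count of called genes is a description only. Of the 8 types compared, COPs were the most deeply sampled, with medians from 1081 to 2402.5 UMIs a cell in the 4 mice beside 765 to 1154 in OPCs. The call of Btg2 was lost without mouse 30 (-0.94), without the filter on low counts (-0.93), with DESeq2 (adjusted p = 0.13) and in a joint fit of all types by edgeR (adjusted p = 0.20), and that of Dusp1 in the joint fit (adjusted p = 0.058). Junb, Ier2 and Atf3 had too few counts to be tested in this and the next comparison.

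From COPs to oligodendrocytes, Fosb (2.13 ± 0.41), Fos (1.75 ± 0.14), Dusp1 (1.27 ± 0.31) and Egr1 (1.10 ± 0.23) were called higher and Nr4a1 lower (-1.08 ± 0.24; log2 fold change, SE). Of 6209 genes 13.7% were called higher, 13.3% lower and 27.1% in either direction. Fos and Fosb were higher and Nr4a1 lower in 4 of 4 mice, and Egr1 and Dusp1 were higher in 3. Without mouse 3 the called genes were 2, Fos and Nr4a1, since Egr1 moved to 0.76 and Dusp1 to 0.78 and Fosb had too few counts to be tested. Egr1 also lost its call without mouse 34 (0.86) and in cells with at least 1000 UMIs (0.98). Without mouse 30 the count was 5. COP sums are shared by this and the preceding comparison. Fosb reached the test through oligodendrocytes, since COPs held 9 of its UMIs.

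Within a type, the genes were counted in part of the cells. Because depth differs between types, each cell was thinned to 500 UMIs. A Fos UMI was then present in 66.5% ± 6.46 of endothelial cells, 64.2% ± 6.23 of microglia, 35.0% ± 9.94 of tanycytes, 32.3% ± 9.56 of ependymal cells, 24.6% ± 10.8 of astrocytes and 21.0% ± 5.71 of OPCs (SD, n = 4). In oligodendrocytes the share was 8.73% ± 1.12 and in COPs 3.32% ± 1.61. Without thinning, the shares were 81.4% in endothelial cells, 33.4% in astrocytes and 9.36% in COPs. No type is known to lack these genes, so free RNA in the droplets was judged from markers: over the pooled cells, the 5 endothelial markers in oligodendrocytes stood at 0.346% to 0.489% of their endothelial level, and Fos at 7.60%. The 5 astrocyte markers, however, stood at 7.38% (Gja1) to 22.3% (Aldoc) of their astrocyte level in oligodendrocytes, a range that holds the 21.0% of Fos, and at 5.04% to 11.3% in COPs, where Fos was at 7.20%. The Fos of COPs and oligodendrocytes is therefore not separated from background by these markers. Atf3 showed the sharpest contrast between the highest types, with 40.6% ± 14.7 of microglia and 8.31% ± 3.15 of endothelial cells at 500 UMIs.

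Counting how many of the 10 genes were present in 1 cell gave the same separation. At 500 UMIs, 73.1% ± 11.8 of microglia and 57.1% ± 5.90 of endothelial cells held UMIs of 3 or more of the genes, and 3.56% and 7.76% held none. The share with 3 or more was 11.1% ± 6.18 in tanycytes, 8.68% ± 4.54 in ependymal cells, 3.81% ± 1.97 in astrocytes, 3.29% ± 1.28 in OPCs, 1.01% ± 0.267 in oligodendrocytes and 0.471% ± 0.547 in COPs (SD, n = 4). Of astrocytes 66.8% held none, and of COPs 89.4%. Shares over the pooled cells were also taken without thinning. The tenth of the cells with most member UMIs held 51.5% of them in astrocytes, 50.1% in tanycytes, 62.9% in oligodendrocytes, 34.4% in endothelial cells and 23.3% in microglia. Such a share also rises where member UMIs are few, and oligodendrocytes held 3291 in 4566 cells.

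**Figure D4:**
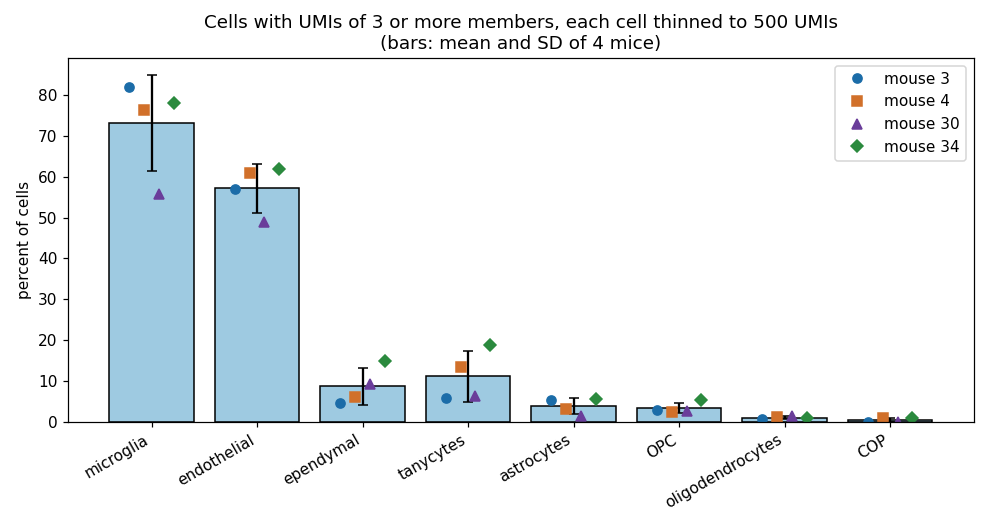
Percent of cells with UMIs of 3 or more of the 10 immediate early genes after thinning each cell to 500 UMIs (bars are the mean and error bars the SD of 4 mice, symbols are mice). Microglia lie between 55.8% and 82.0% and endothelial cells between 48.9% and 61.8%, above all values of the other 6 types with enough cells.

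Whether the genes fall in the same cells was then examined. For each of the 45 pairs, the number of cells with both genes was divided by the number predicted if the genes were independent among cells of similar UMI total in the same mouse and type. The ratio was 2.47 ± 0.363 in oligodendrocytes, 2.22 ± 0.351 in astrocytes, 1.78 ± 0.396 in tanycytes, 1.58 ± 0.211 in ependymal cells and 1.52 ± 0.131 in OPCs (SD, n = 4). It was above 1 in each of the 4 mice in all 8 types. In endothelial cells it was 1.12 ± 0.00849 and in microglia 1.08 ± 0.0208. The ratio cannot rise as far where each gene is present in many cells, as in these 2 types. The COP ratio, 1.87 ± 0.816, rested on 175 pairs observed against 77.1 predicted. Free RNA was not removed from these counts, and its part in the ratios was not tested. The same measure lay between 0.994 and 1.06 for the 10 housekeeping genes and between 1.01 and 1.07 for 12 heat shock genes. The highest heat shock value, 1.07 ± 0.0452, was that of microglia, so there the immediate early genes did not exceed this list.

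Single pairs were then counted over the pooled cells. Among pairs with at least 5 predicted cells, 32 of 32 were above prediction in astrocytes, 45 of 45 in tanycytes and in endothelial cells, 44 of 45 in ependymal cells, 24 of 25 in OPCs, 20 of 21 in oligodendrocytes, 3 of 3 in COPs and 42 of 45 in microglia. Fewer were above prediction in each of the 4 mice: 31 in astrocytes, 42 in tanycytes, 44 in endothelial cells, 35 in ependymal cells, 15 in OPCs, 17 in oligodendrocytes, 1 in COPs and 26 in microglia. Within the same limit of at least 5 predicted cells, the highest ratio in astrocytes was that of Nr4a1 with Dusp1, 24 cells against 5.41 predicted. In oligodendrocytes it was that of Junb with Egr1, 24 against 5.17. Atf3 with Fos was the lowest such pair of astrocytes, 14 cells against 10.6. Pairs with fewer predicted cells were left out, and in astrocytes those with Atf3 lay on both sides of prediction. The pairs share genes and cells and are not independent, so no p is given.

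Cells with and without a Fos UMI were also compared, without matching for depth. Of 2308 astrocytes with a Fos UMI, 31.9% also held Egr1, compared with 4.83% of 3601 astrocytes without, at median depths of 894 and 822 UMIs. Jun was present in 22.1% and 4.69% of these cells. In tanycytes the shares for Egr1 were 41.8% and 7.58%, in ependymal cells 40.9% and 6.10%, in OPCs 26.9% and 13.4%, and in oligodendrocytes 23.7% and 3.23%. In endothelial cells and microglia, where Fos was common, Egr1 was present in 61.5% and 82.9% of the cells with Fos and in 24.3% and 51.2% of those without, at median depths of 1189 and 823 UMIs in endothelial cells and 964.5 and 879.5 in microglia. Within depth strata, the cells with both Fos and Egr1 numbered 632 against 592 predicted in endothelial cells and 247 against 230 in microglia (ratios 1.07 and 1.07). They numbered 736 against 400 in astrocytes (1.84) and 173 against 49.9 in oligodendrocytes (3.47). The excess was small in endothelial cells and microglia, where the ratio cannot rise as far because both genes are present in many cells.

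**Figure D5:**
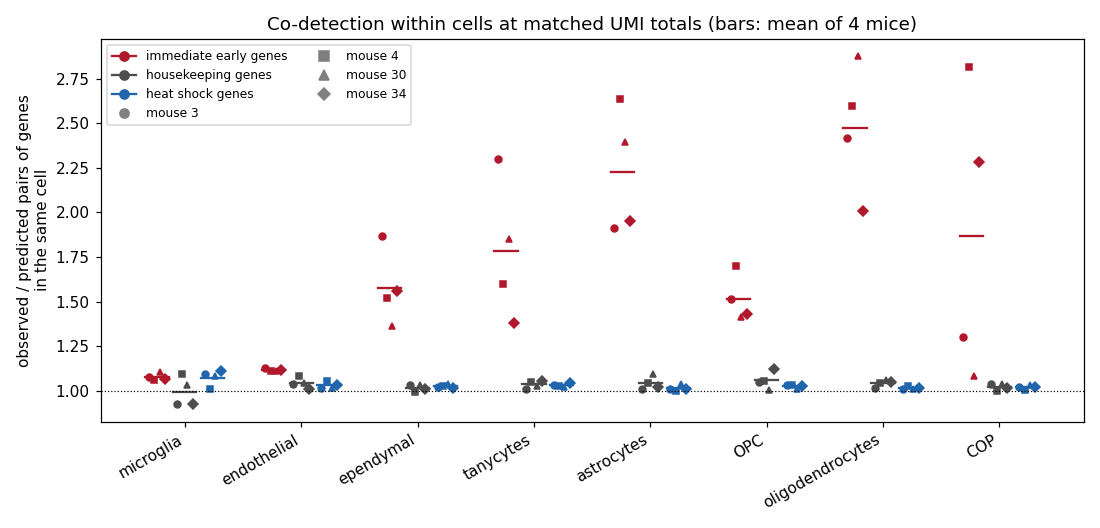
Observed over predicted number of cells that hold both genes of a pair, summed over pairs, for the immediate early genes and 2 reference lists in each cell type (symbols are mice, bars the mean of 4 mice, the dotted line marks 1). The immediate early genes reach 2.47 in oligodendrocytes and 2.22 in astrocytes, and the reference lists stay between 0.994 and 1.07 on average.

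Markers of other types were compared between cells with 3 or more of the genes and cells with none, without thinning. In 615 astrocytes with 3 or more, the 5 endothelial markers summed to 52.3 CPM and the 5 microglial markers to 76.9 CPM, beside 61.7 and 70.5 CPM in 3069 astrocytes with none. In 177 oligodendrocytes with 3 or more, microglial markers stood at 96.9 CPM beside 55.3 CPM, and endothelial markers at 52.2 CPM beside 41.7 CPM. Astrocyte markers in these oligodendrocytes stood at 1610 CPM beside 1264 CPM, and their part in the values was not tested. In 153 OPCs with 3 or more, endothelial markers stood at 260 CPM, from 54 UMIs, beside 88.4 CPM, and the part of these cells in the OPC values was not tested. The median mitochondrial percent was 13.5% in astrocytes with 3 or more genes and 15.5% in those with none, and the median depth 981 and 817 UMIs.

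The mice differed in a way that ran across genes and types. Mouse 34 was the highest of the 4 for 9 of the 10 genes in tanycytes, for 7 in ependymal cells, oligodendrocytes and endothelial cells and for 6 in microglia, and it was the lowest for no gene in any of the 8 types. Mouse 30 was the lowest for 8 genes in endothelial cells and in microglia and for 7 in astrocytes. Mouse 3 was the lowest for 8 genes in tanycytes and 7 in ependymal cells, although it had the highest Fos in astrocytes. Depth moved only in part with this: the median was 1038 UMIs a cell in mouse 34, 1066 in mouse 3, 909 in mouse 30 and 947.5 in mouse 4, and its part was not tested. All mice are of 1 group, so these are differences between single animals and their libraries.

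Other genes of the early response were described from a list of 40, of which 39 were in the table. It was assembled with earlier results of these data known. In endothelial cells against astrocytes, 20 of 24 tested were called higher and 1 lower, with a median log2 fold change of 2.27, and in microglia 21 were called higher and 2 lower of 24, with a median of 3.54, beside 17.2% and 17.8% of all tested genes called higher. Klf2, a zinc finger factor known from endothelium, differed most in both, by 6.95 ± 0.17 and 6.76 ± 0.28 (SE). Zfp36, which marks messenger RNAs for decay, was higher by 6.36 ± 0.19 in microglia and by 2.23 ± 0.20 in tanycytes, and Ier3 was higher by 5.68 ± 0.17 in endothelial cells and by 1.77 ± 0.20 in tanycytes. In tanycytes 6 of 23 were called higher and 2 lower, beside 9.9% and 11.3% of all genes, and in ependymal cells 8 of 19 higher and 2 lower, beside 17.6% and 14.3%. In OPCs against astrocytes 4 of 17 were higher and 3 lower, Cyr61 (-2.54 ± 0.21) and Gadd45g (-2.49 ± 0.15) most, beside 10.9% and 12.4%. From OPCs to COPs 5 of 10 were called lower and 1 higher, led by Zfp36l1 (-3.88 ± 0.19), beside 13.2% and 10.8%. From COPs to oligodendrocytes 4 of 10 were called higher, led by Rhob (2.54 ± 0.15), and 2 lower, beside 13.7% and 13.3%. Tanycytes against ependymal cells gave 1 of 21 higher and 4 lower, led by Sik1 (-2.42 ± 0.43), beside 6.73% and 13.1%.

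Heat shock genes, whose protein products are chaperones, were ordered differently. Their summed level was highest in ependymal cells, 6905 CPM ± 978, then in endothelial cells, 5661 CPM ± 1149, and lowest in astrocytes, 1924 CPM ± 75.8 (SD, n = 4). Against astrocytes, 6 of 11 tested were called higher in ependymal cells, 7 of 12 in tanycytes, 7 of 12 in endothelial cells, 5 of 8 in microglia and 1 of 9 in OPCs, beside 17.6%, 9.9%, 17.2%, 17.8% and 10.9% of all tested genes, so that the count in OPCs was near the share of all genes. Hspa1a, the inducible form of Hsp70, was higher by 6.32 ± 0.16 in endothelial cells, by 3.88 ± 0.19 in ependymal cells and by 3.66 ± 0.18 in tanycytes (log2 fold change, SE). COPs, lowest in immediate early genes, held 3840 CPM ± 446 of heat shock UMIs, beside 3554 CPM ± 155 in OPCs. No heat shock gene of 8 was called between these 2 types by edgeR or by DESeq2, while 5 had an edgeR p below 0.05, unadjusted and adjusted, with a fold change under the limit.

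A further list held kinases and factors that act upstream. Of 16 listed, 7 of 14 tested were called higher in endothelial cells, with Elk3 (3.77 ± 0.24), a ternary complex factor known from vessels, highest, and in microglia 1 of 7, Mapk14 (2.46 ± 0.38). In ependymal cells 1 of 12 was called, Srf, the gene of serum response factor (1.23 ± 0.23; log2 fold change, SE). In tanycytes none of 13 and in OPCs none of 9 were called by edgeR or by DESeq2, where 5 and 4 had an unadjusted edgeR p below 0.05 and 2 and 3 an adjusted one. Beside the 17.8% and 17.6% of all genes called higher in microglia and ependymal cells, the 1 of 7 and 1 of 12 are no excess, while 17.2% were called higher in endothelial cells. From OPCs to COPs 2 of 6 were called by edgeR, Mapk3 higher (1.37 ± 0.20) and Map2k1 lower (-1.07 ± 0.31), while DESeq2 called 1, and from COPs to oligodendrocytes 1 of 8, Map2k1 (1.79 ± 0.25). Of all genes 24% were called in either direction in the first of these comparisons and 27.1% in the second, so the 1 of 8 is no excess. Between tanycytes and ependymal cells none of 13 was called by edgeR or by DESeq2, and 4 had an unadjusted and 3 an adjusted edgeR p below 0.05. Of the 10 housekeeping genes, none was called in 6 of the 8 comparisons by edgeR or by DESeq2, although in each of these between 1 and 6 had an edgeR p below 0.05, unadjusted and also adjusted, with a fold change under the limit. Emc7 was lower in ependymal cells than in astrocytes (-1.51 ± 0.14), and Reep5 was higher in oligodendrocytes than in COPs (1.01 ± 0.11).

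Finally, the genes with the most similar pattern were sought among 3270 genes with a mean of at least 50 CPM. Pearson's r was taken between the log2 CPM of a gene and the mean of the 10 members over the 32 sums of mouse and type, which share mice and libraries. The 5 highest were Ppp1r15a (0.95), Klf4 (0.93), H2-D1 (0.93), Zfp36 (0.93) and Gm26532 (0.93). Ppp1r15a ran from 588 CPM in microglia and 255 CPM in endothelial cells to 19.6 CPM in COPs. Among the members themselves, each was compared with the mean of the other 9, and r ran from 0.81 for Nr4a1 to 0.98 for Btg2, with Fos at 0.89.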

How the data were processed

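Single-cell UMI counts of 4 mice were analysed. The deposited counts were whole, and they added up to the total that the authors list for each of the 20151 cells. Cells held at least 487 UMIs, 396 genes and at most 20.0% mitochondrial UMIs, by the percent the authors deposited per cell. The submitters' processing notes name Cell Ranger 1.2 and Seurat. The alignment settings, the doublet treatment and the making of the authors' cell type labels were not given in these sources, no doublet caller was run, and if the labels rest on these counts the tests describe the labelled types. The table also held 12 libraries that are not among the labelled samples and were not used.

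Counts were summed per mouse and type (at least 20 cells in each mouse), scaled to CPM, and compared within mice with edgeR 4.0.16 in R 4.3.3 (quasi-likelihood F test, mouse as a block because the types come from the same animal, TMM, filterByExpr, Benjamini-Hochberg adjustment over all genes tested). Standard errors come from the F statistic. Each mouse is 1 sample. The p-values rest on a spread between these 4 mice that edgeR estimates partly across genes. They do not measure the spread of each gene alone, and neither do the standard errors. Shares of cells with a single gene at 500 UMIs are expectations after thinning. The number of genes per cell at 500 UMIs comes from 1 seeded random draw. Co-detection used 10 strata of UMI total per mouse and type. The text names the 10 genes everywhere, from each further list at most the 3 called genes with the largest change, and the 5 genes of most similar pattern. The genes, lists, tests and alternatives were chosen with earlier results of these data known. The edgeR fit was tested on simulated counts. Alternatives were RLE factors, DESeq2 1.42.0, no filter, no block, a joint fit, deeper cells, other totals and each mouse left out.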

Additional observations from a re-analysis of the deposited data

Results flagged for a closer look

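Of 152 values screened, 9 had 1 mouse apart from the other 3 by more than the limit that chance passes in about 5% of groups of 4. Mouse 34 stood apart in 4 of them, mouse 3 in 3, and mice 4 and 30 in 1 each. Mouse 34 was high for Fosb in ependymal cells, at 150 CPM beside 50.6 to 56.6 CPM in the other mice, and for the 10 genes summed in oligodendrocytes, at 692 CPM beside 516 to 534 CPM. In the same mouse 5.19% of OPCs held 3 or more of the genes at 500 UMIs, beside 2.49% to 2.85%, and the summed housekeeping genes of endothelial cells were at 1506 CPM beside 1475 to 1480 CPM. Mouse 3 was low for Junb in tanycytes, at 41.8 CPM beside 152 to 163 CPM, for Nr4a1 in ependymal cells, at 24.3 CPM beside 73.8 to 78.2 CPM, and for Btg2 in oligodendrocytes, at 19.4 CPM beside 28.8 to 30.3 CPM. In microglia, mouse 4 was high for Junb, at 1653 CPM beside 791 to 817 CPM, on 34 cells, and mouse 30 was low for Egr1, at 1855 CPM beside 2525 to 2578 CPM.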

How the results depend on the processing

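Of 44 fold changes called between types, 36 kept their call in every alternative in which the gene was tested, and none turned its direction. The fit without the replicate block, in which mice were not paired across types, called 10, 10, 3, 4, 3, 3, 6 and 5 genes in the 8 comparisons, the same counts as with it. Leaving out 1 mouse kept 10 genes called in endothelial cells and in microglia. The count ran from 3 to 5 in ependymal cells (5 without mouse 3), from 3 to 9 in tanycytes (9 without mouse 3), from 3 to 4 in OPCs, from 2 to 3 between tanycytes and ependymal cells, from 5 to 6 for COPs against OPCs, and from 2 to 5 for oligodendrocytes against COPs (2 without mouse 3). With cells of at least 1000 UMIs, 2 genes were called for oligodendrocytes against COPs, the co-detection ratio of endothelial cells was 1.09, and Jun in OPCs against astrocytes moved to -0.13; microglia gave no value there, since mouse 4 had fewer than 20 such cells. The joint fit called 4 genes for COPs against OPCs. Uncalled fold changes near 0 changed sign: in OPCs against astrocytes Dusp1 moved to 0.075 with DESeq2 and ran from -0.30 to 0.24 over the mice left out, and Egr1 from -0.29 to 0.0088; Junb in ependymal cells ran from -0.12 to 0.82; and in tanycytes against ependymal cells Fos ran from -0.0042 to 0.29 and Jun from -0.19 to 0.036. Without mitochondrial and ribosomal protein genes in the totals, the summed levels were 13517 CPM in endothelial cells, 18687 CPM in microglia, 1901 CPM in OPCs and 748 CPM in oligodendrocytes. Counts were too low to test Atf3 and Ier2 in the 3 comparisons of the oligodendrocyte lineage, Junb in the 2 with COPs, and, for oligodendrocytes against COPs, Fosb without mouse 3 and Fosb and Nr4a1 in cells with at least 1000 UMIs. The same held for Btg2 (without mouse 3) and Dusp1 (without mouse 34) in COPs against OPCs, and for Ier2 in ependymal cells without mouse 34 and in cells with at least 1000 UMIs.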
